A study of Mus musculus with 6 samples.

Results

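Type I interferon-induced antiviral genes encode sensors and effectors with which a cell senses a virus and blocks it. The 2 subunits of the interferon receptor, which acts before induction, are listed and counted with them. The 35 genes described here were chosen by gene name from the 56884 genes of the deposited table, and all 35 names were found, each once. They fall by role into 2 receptor subunits, 8 nucleic acid sensors, 3 genes of the ISG15 system, 5 genes of the IFIT family, 7 direct antiviral effectors, 3 genes of ADP-ribosylation and 7 other induced genes. RNA sequencing was carried out on 6 libraries of mouse neutrophils sorted from bone marrow by the surface markers CD101 and Ly6G. The cells of 3 libraries were cultured outside the animal with DKK1, and those of 3 control libraries were cultured without it. DKK1 (Dickkopf-1) is a secreted antagonist of Wnt signalling. The comparison asks how DKK1 alters the transcripts of these cells. Neither the dose of DKK1 nor the time in culture, the strain or age of the mice or the strand use of the kit is stated in the labels. They also do not say whether replicate libraries had different mice or dishes behind them, so every p-value reflects spread between libraries that may be purely technical.

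A cell that detects viral nucleic acid secretes type I interferon, which binds the receptor made of IFNAR1 and IFNAR2 on the same and neighbouring cells. The receptor's kinases JAK1 and TYK2 phosphorylate transcription factors, STAT2 among them, that join IRF9 and bind the interferon-stimulated response element (ISRE) in the promoters of induced genes. Several of the induced products sense nucleic acid themselves or feed back on the pathway, and a subset of mouse neutrophils is known to carry such transcripts in the absence of infection.

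The values are normalized counts, and between 5188116 reads in DKK1 library 2 and 9851961 in control library 3 lie behind each library. Before any interferon gene is considered, the DKK1 libraries stood apart from their label. All 12 listed markers of mature neutrophils were lower with DKK1, with a summed level of 3209 to 3882 in DKK1 libraries and 746053 to 772944 in control libraries. Ly6g, one of the sorting markers, averaged 5.96 ± 1.30 with DKK1 and 1338 ± 72.7 in control, and Cd101, the other, averaged 3.53 ± 2.31 with DKK1 and 5098 ± 178 in control (SD, n = 3 each). Over the whole table, 16265 genes could be tested, and limma (Benjamini-Hochberg adjusted p under 0.05) called 5873 lower with DKK1, which is 36.1%, and 5709 higher, which is 35.1%. With libraries scaled to equal totals the split was 4617 lower and 7157 higher, 60.8% of calls higher against 49.3%, and the median of all genes moved by 0.51 on the log2 scale. In bulk samples such as these, fewer cells of a type and less RNA per cell cannot be told apart.

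Most of the interferon-induced genes fell with DKK1. Of the 35 genes, 34 had enough reads to be tested; 29 of them were lower, beside 36.1% of all genes, 2 were higher, beside 35.1%, and 3 did not pass. The genes that rose were Bst2 and Tor3a, the genes that did not pass were Mx1, Mx2 and Ifi35, and Ifi44 was not tested. For 30 of the 34 every DKK1 library lay below every control library, beside 37.4% of all genes. A log2 change of -3 or below was reached by 21 of them, beside 11.6% of all genes. The median log2 change of the 34 was -4.62, with a range of -9.52 to 1.65, and the median of all genes was -0.029. Scaled to equal totals, 28 were lower and 2 higher, with a median of -4.10 where the median of all genes was 0.48.

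The summed level of the 35 genes was 6317, 6892 and 6384 in DKK1 libraries 1 to 3, against 59363, 58255 and 58126 in the control libraries. The DKK1 libraries lay close together and far below control, 8.97-fold lower in the mean. As a share of each library's reads, which takes no scaling factor, the genes made up 0.0967% to 0.0972% with DKK1 and 0.599% to 0.607% in control. By role, the fall in summed level was 95.9-fold for the IFIT family, 23.0-fold for the sensors, 11.8-fold for the ISG15 system, 10.4-fold for the effectors and 3.68-fold for the ADP-ribosylation genes. It was 16.04-fold for the other induced genes and 1.70-fold for the receptor subunits. Single genes weigh on these sums: of the effectors' 23558 in control, Samhd1 averaged 14972 and Rsad2 4916. By median log2 change the effectors, at -1.64, fell less than the ADP-ribosylation genes, at -2.94. The effectors' median is the value of Mx2, which did not pass and rests on 6 reads with DKK1 and 14 in control.

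**Figure D1:**
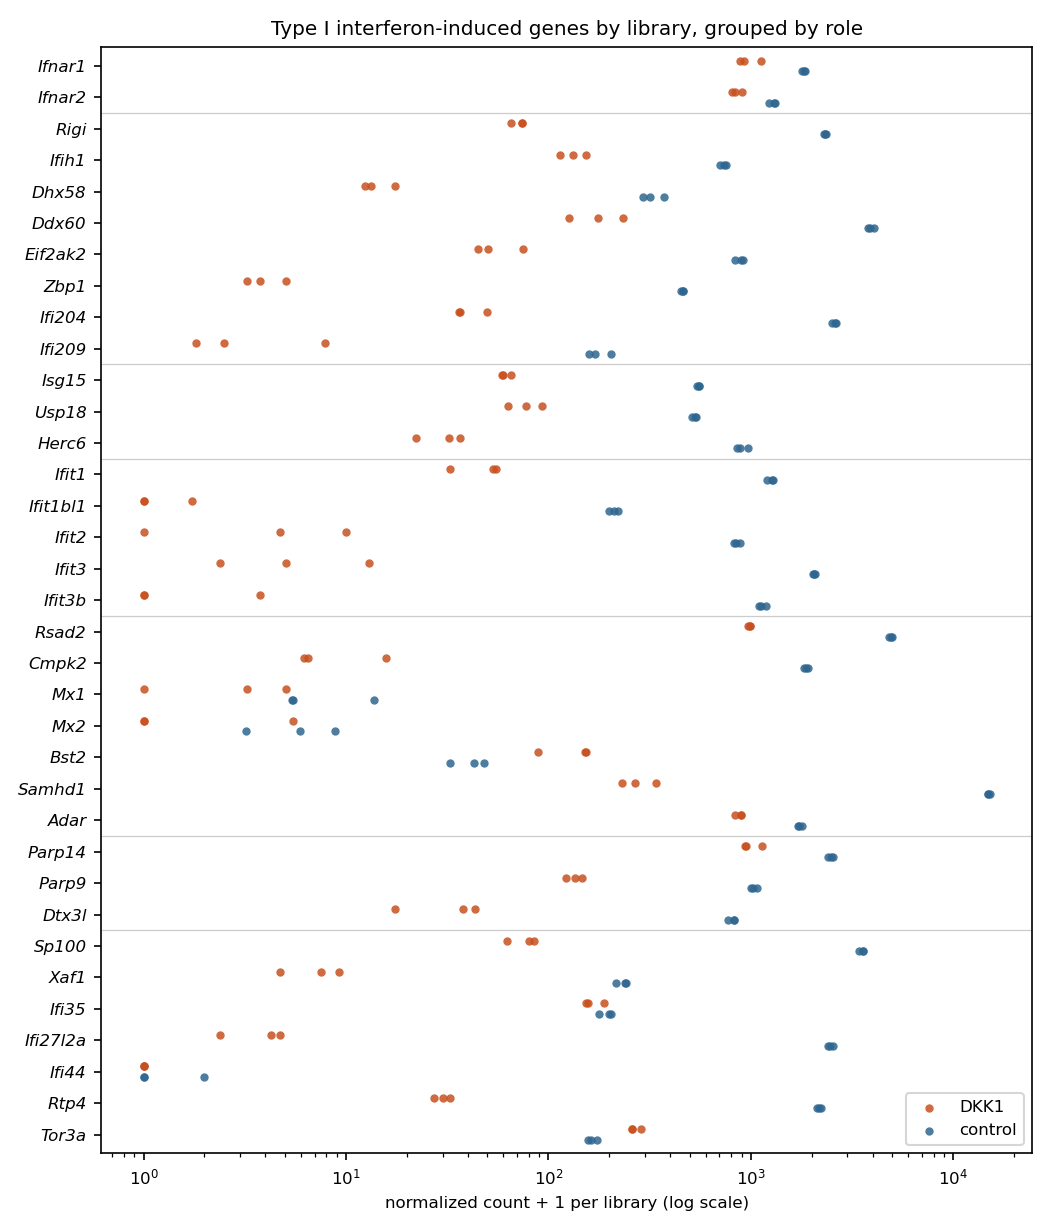
Normalized count + 1 (log axis) of the 35 genes in each of the 3 DKK1 libraries (orange) and 3 control libraries (blue), in rows by gene and with lines between roles; each point is a library. Bst2 and Tor3a have their DKK1 points to the right of control, the points of Mx2 and Ifi35 overlap between groups, and the DKK1 points of the IFIT genes other than Ifit1 lie near the left edge.

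The order of the genes by level also differed between the groups, compared as mean normalized count per kilobase of exon. With DKK1 the highest were Ifnar2 at 254, Rsad2 at 226, Ifnar1 at 164, Bst2 at 144 and Parp14 at 108. In control the highest were Ifi27l2a at 5334, Samhd1 at 1636, Ifit3 at 1174, Rsad2 at 1134 and Rtp4 at 1017. Rsad2 was the one gene among the first 5 of both orders, and Ifi27l2a, first in control, stood in place 21 with DKK1 at 6.02 per kilobase. Ifnar2, first with DKK1, stood in place 13 in control at 384 per kilobase. Neighbours in the DKK1 order were not all separated beyond their spread: Adar, in place 6, had 108 per kilobase, as did Parp14 in place 5.

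Libraries of a group agreed more closely in control than with DKK1. Among genes with a mean of at least 10, the coefficient of variation over the 3 libraries was 1.69% to 42.8% with DKK1 (median 15.2%, 23 genes) and 0.999% to 19.5% in control (median 3.25%, 32 genes). The sets differ because 9 of the 32 genes averaged under 10 with DKK1. The groups were also compared at unlike levels, since most of the genes had far fewer reads with DKK1. The part of counting noise in the difference was not tested. Rsad2, well counted in both groups, averaged 982 ± 16.6 with DKK1 and 4916 ± 77.0 in control (SD). DKK1 library 2, which has the fewest reads, held the highest value in 11 of the 23.

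**Figure D2:**
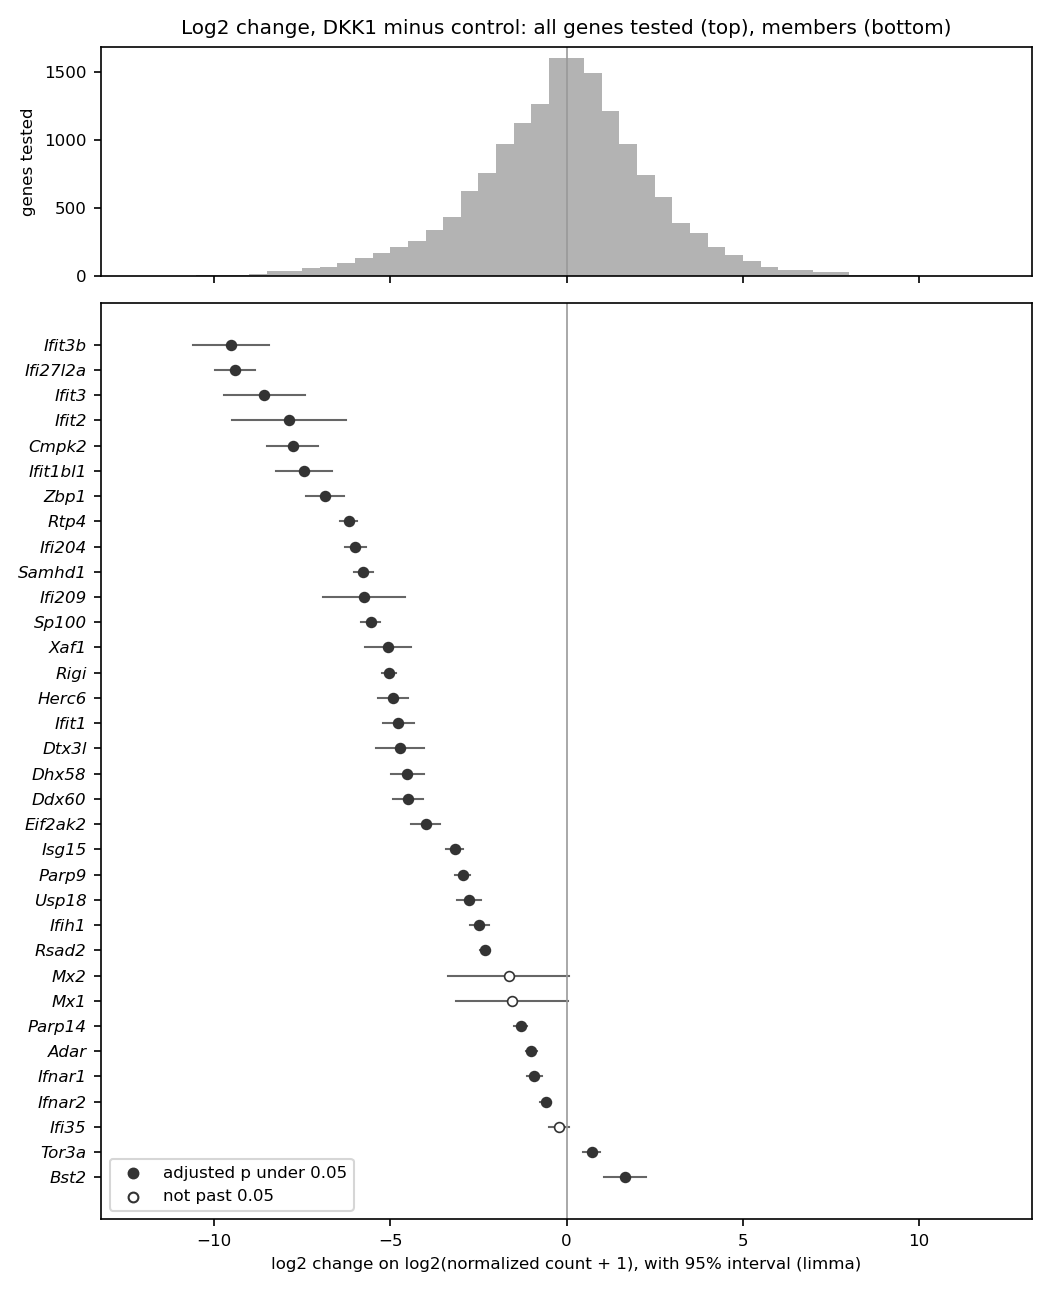
Top: number of genes by log2 change, DKK1 minus control, for all 16265 genes tested. Bottom: log2 change on the log2(normalized count + 1) scale with its 95% interval from limma for the 34 interferon-induced genes tested, filled where the adjusted p was under 0.05; Ifit3b lies lowest at -9.52 and Bst2 highest at 1.65.

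The ISRE is a promoter element. The window from 250 bases before to 50 bases after each annotated start was therefore searched in RefSeq sequence (build GRCm38.p6). A window was found for 24 of the 35 genes. The ISRE core was written GAAANNGAAA, where N is any base, and searched on both strands. It was present in 11 of the 24 genes (45.8%), and in 1079 of 27025 RefSeq genes with a window (3.99%). The gamma-activated site, written TTCNNNGAA and the same on both strands, was present in 8 of the 24 (33.3%) and in 2582 of the 27025 (9.55%). Bst2 and Eif2ak2 held both, and in Bst2 the matches overlap. A match is a description of letters and not a bound site. The genes below are shown because they carry the results of the following paragraphs: a gene with overlapping cores, genes of the IFIT family, the less strongly lowered Rsad2, and Bst2, which rose. Capitals mark the ISRE core or cores, which read as the reverse complement where they lie on the other strand. Each line gives the promoter 5′ to 3′ on the strand of the gene.
Isg15, minus strand, chr4:156200835-156200936: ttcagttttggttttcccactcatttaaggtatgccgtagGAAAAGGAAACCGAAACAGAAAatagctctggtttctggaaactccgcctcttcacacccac
Ifit1, plus strand, chr19:34640745-34640853: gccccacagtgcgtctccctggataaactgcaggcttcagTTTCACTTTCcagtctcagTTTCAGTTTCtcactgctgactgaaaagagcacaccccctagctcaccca
Ifit3, plus strand, chr19:34583333-34583456: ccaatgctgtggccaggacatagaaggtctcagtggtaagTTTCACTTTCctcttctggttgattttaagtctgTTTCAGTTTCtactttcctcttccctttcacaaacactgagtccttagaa
Ifit3b, plus strand, chr19:34607729-34607852: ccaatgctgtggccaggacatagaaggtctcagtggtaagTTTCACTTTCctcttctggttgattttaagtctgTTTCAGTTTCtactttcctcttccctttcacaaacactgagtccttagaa
Rsad2, minus strand, chr12:26456523-26456612: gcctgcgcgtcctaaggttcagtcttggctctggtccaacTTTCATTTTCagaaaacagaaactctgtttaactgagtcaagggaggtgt
Bst2, minus strand, chr8:71537547-71537642: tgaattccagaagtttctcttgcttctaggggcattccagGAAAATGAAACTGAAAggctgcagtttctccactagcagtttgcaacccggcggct

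The 3 cores of Isg15 begin 78, 72 and 66 bases before its start and overlap each other, and the 2 of Bst2 begin 130 and 124 bases before. Ifit1 holds its cores at 104 and 85 bases before the start. The stretches shown for Ifit3 and Ifit3b are identical over 124 of 124 bases. The log2 change had a median of -4.50 in the 11 genes with a core (range -9.52 to 1.65) and -5.00 in the 12 tested genes with a window and none (range -7.88 to -0.22). A core was present in Ifit3b, the gene with the lowest log2 change, and in Bst2, the gene with the highest. Cmpk2, Ifit2, Ifi209, Samhd1, Sp100, Xaf1 and Herc6, all of which fell by over 30-fold, held no ISRE core in this window.

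**Figure D3:**
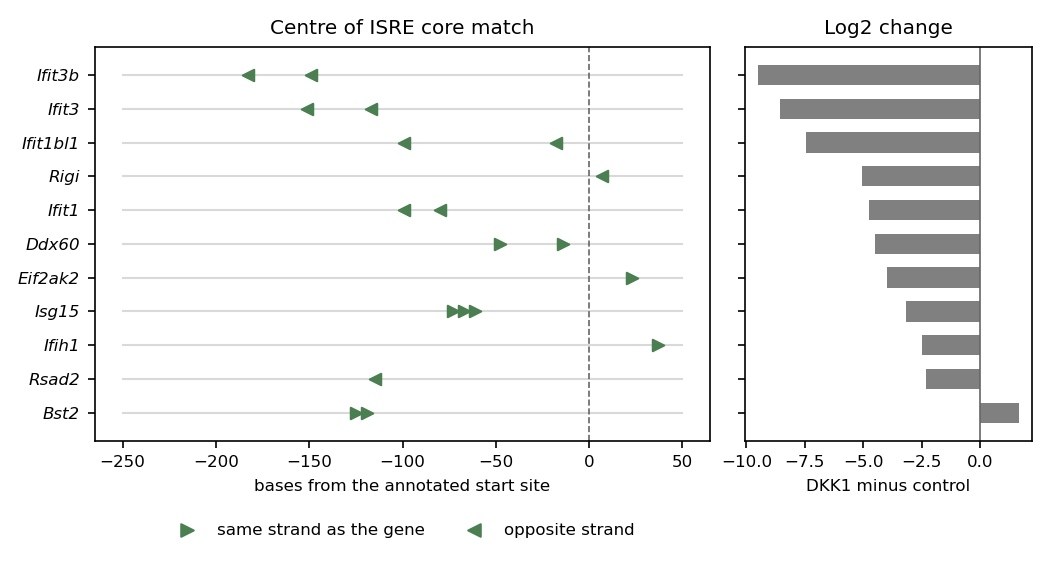
Left: centre of each ISRE core match, in bases from the annotated start (dashed line), for the 11 genes that hold one, with triangles pointing right for the strand of the gene and left for the other strand. Right: the log2 change of the same genes, DKK1 minus control; genes with a core 104 or more bases before the start include Ifit3b at -9.52 and Bst2 at 1.65.

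The receptor changed least among the roles that moved one way. Ifnar1, which with Ifnar2 binds every type I interferon, had 879, 1120 and 919 normalized counts with DKK1 and 1798, 1841 and 1822 in control (log2 change -0.91, SE 0.09, limma adjusted p = 1.71e-05). Ifnar2, the subunit with the higher affinity, had 833, 901 and 803 with DKK1 and 1310, 1299 and 1229 in control (log2 change -0.60, SE 0.07, limma adjusted p = 5.18e-05). For both, all DKK1 libraries were below all control libraries, beside 37.4% of all genes. The falls were 1.87-fold and 1.51-fold. Scaled to equal totals, Ifnar2 kept a log2 change of -0.07 and lost its call (limma adjusted p = 0.355). The genes lie on chromosome 16, plus strand, with Ifnar2 at 91372783 to 91405589 and Ifnar1 at 91485238 to 91507441, and 7.89% of the 50-base stretches of Ifnar2 also occur in the overlapping model Gm21970, which had no reads.

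The 8 sensors all fell, beside 36.1% of all genes. Their median log2 change was -4.78, and that of all genes was -0.029. Rigi, which encodes RIG-I, a sensor of RNA ends made by viruses, had 64.1, 72.8 and 72.7 with DKK1 and 2304, 2355 and 2334 in control, 33.4-fold lower, a log2 change of -5.04 (SE 0.09, limma adjusted p = 1.86e-10). Ifih1 encodes MDA5, a sensor of long double-stranded RNA, and had 113, 152 and 131 with DKK1 and 739, 753 and 706 in control, 5.56-fold lower. Within each gene the DKK1 libraries were far below control, while Ifih1, the related helicase, fell least of the 8. Dhx58, which encodes LGP2, a regulator of both, averaged 13.4 ± 2.64 with DKK1 and 327 ± 41.9 in control, 24.4-fold lower. Ddx60, a further helicase, had 126, 232 and 175 with DKK1 and 4060, 3870 and 3796 in control, 22.01-fold lower. Eif2ak2 encodes PKR, the kinase that halts translation on double-stranded RNA, and averaged 55.8 ± 16.1 with DKK1 and 880 ± 37.6 in control (SD, n = 3 each).

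Sensors of DNA or of Z-form nucleic acid fell further. Zbp1, which binds the Z-form and can start necroptosis, had 2.24, 2.75 and 4.08 with DKK1 and 460, 461 and 449 in control, 151-fold lower, a log2 change of -6.86 (SE 0.24, limma adjusted p = 1.06e-08). Ifi204 belongs to the PYHIN family and senses DNA, and had 35.0, 35.7 and 49.0 with DKK1 and 2595, 2637 and 2505 in control, 64.6-fold lower. Ifi209, of the same family, had 1.49, 6.87 and 0.817 with DKK1 and 158, 170 and 203 in control, 57.9-fold lower, and 153-fold lower without DKK1 library 2. Control libraries held at least 158 normalized counts of each of these, and DKK1 libraries at most 49.0. PYHIN genes are near copies of each other: 33.7% of the 50-base stretches of Ifi209 and 20.02% of those of Ifi204 occur in another gene, most in Ifi214 and Ifi211, so their counts are uncertain where the counting could split reads.

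The ISG15 system attaches a small ubiquitin-like protein to other proteins. Isg15 itself had 58.9, 57.7 and 64.5 with DKK1 and 553, 544 and 556 in control, 9.13-fold lower, a log2 change of -3.17 (SE 0.11, limma adjusted p = 9.24e-09). Herc6, its ligase in mice, had 31.3, 35.7 and 21.2 with DKK1 and 964, 852 and 887 in control, 30.6-fold lower. Usp18 removes ISG15 and restrains signalling at IFNAR2, and had 76.8, 92.0 and 62.1 with DKK1 and 533, 527 and 510 in control, 6.80-fold lower. For all 3 every DKK1 library lay below every control library, beside 37.4% of all genes. Herc6 fell more than Isg15 and Usp18.

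The IFIT family fell furthest of the roles, by median and by summed level. Its proteins bind viral RNA and hinder its translation, and its genes lie side by side on chromosome 19 between 34550694 and 34650009. Ifit3 had 11.9, 1.37 and 4.08 with DKK1 and 2078, 2029 and 2039 in control, 354-fold lower, a log2 change of -8.57 (SE 0.51, limma adjusted p = 5.72e-07), and 751-fold lower without DKK1 library 1. Ifit2 had 3.73, 0 and 8.98 with DKK1 and 882, 848 and 821 in control, 201-fold lower, a log2 change of -7.88 (SE 0.71), and 456-fold lower without DKK1 library 3. Ifit1 kept more of its level, with 54.4, 52.2 and 31.8 with DKK1 and 1266, 1203 and 1289 in control, 27.1-fold lower. It had the smallest fall of the 5. All 5 had separate groups with DKK1 lower, beside 37.4% of all genes.

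Ifit3b and Ifit1bl1 were almost without reads after DKK1. Ifit3b had 2 reads over the 3 DKK1 libraries and 3211 over the control libraries, a ratio of 1875 with a 95% exact counting interval of 519 to 15490. Ifit1bl1 had 1 read with DKK1 and 590 in control, a ratio of 689 with an interval of 123 to 27262. These intervals cover counting error only. Ifit3 and Ifit3b are near copies, with 51.2% of the 50-base stretches of Ifit3 present in Ifit3b and 44.5% the other way, so reads could be split between them, and the promoters printed above do not tell them apart. The sum of the 5 genes was 70.8, 56.3 and 44.9 with DKK1 and 5545, 5417 and 5531 in control.

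Among the direct effectors, Rsad2 and its neighbour Cmpk2 differed widely in how far they fell. Rsad2 encodes viperin, an enzyme that turns CTP into a chain terminator of viral RNA synthesis, and had 963, 988 and 995 with DKK1 and 4993, 4916 and 4839 in control, 5.01-fold lower, a log2 change of -2.32 (SE 0.05, limma adjusted p = 8.25e-10). Cmpk2 encodes a nucleotide kinase that can supply CTP, and had 5.22, 5.49 and 14.7 with DKK1 and 1882, 1920 and 1822 in control, 221-fold lower, a log2 change of -7.77 (SE 0.32, limma adjusted p = 3.15e-08), and 350.0-fold lower without DKK1 library 3. The genes lie on chromosome 12 on opposite strands with their starts facing apart, Rsad2 from 26442746 to 26456452 and Cmpk2 from 26469204 to 26479837, 12751 bases away. There were 185, 180 and 67.7 counts of Rsad2 for each count of Cmpk2 in DKK1 libraries, and 2.65, 2.56 and 2.66 in control libraries. The mean log2 ratio was higher by 5.45 with DKK1. Its two-sided exact permutation test gave p = 0.1, the smallest that 3 libraries against 3 allow, and 0.143 adjusted over 10 neighbouring pairs. None of the 50-base stretches of either gene occurs in another gene.

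**Figure D4:**
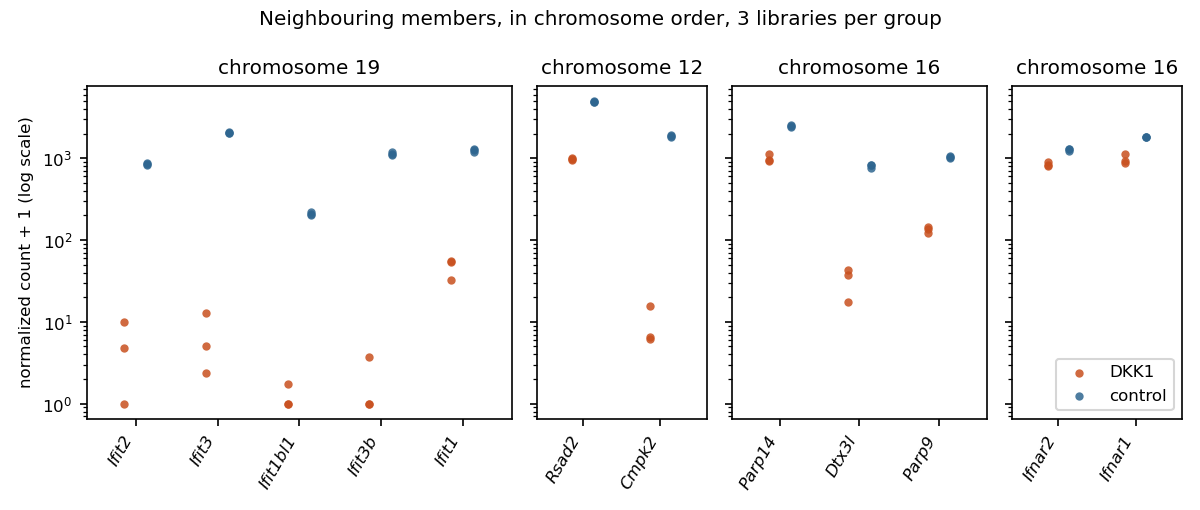
Normalized count + 1 (log axis) of neighbouring genes in chromosome order, 3 DKK1 libraries (orange, left of each pair) and 3 control libraries (blue, right); each point is a library. Rsad2 lies between 963 and 995 with DKK1 while Cmpk2 lies between 5.22 and 14.7, and Ifit1 lies above the other IFIT genes with DKK1.

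Samhd1 and Adar, effectors that act on nucleotides and RNA, fell by very different amounts. Samhd1 breaks down the nucleotides needed for reverse transcription, and had 266, 229 and 340 with DKK1 and 15138, 14847 and 14931 in control, 53.8-fold lower, a log2 change of -5.76 (SE 0.12, limma adjusted p = 5.44e-10). It alone made up 25.6% of the summed level in control and 4.26% with DKK1. Adar edits double-stranded RNA and so keeps a cell's own RNA from the sensors, and had 894, 893 and 833 with DKK1 and 1787, 1734 and 1707 in control (log2 change -0.996, SE 0.06, limma adjusted p = 6.25e-07). Both genes had separate groups with DKK1 lower, beside 37.4% of all genes. Chrnb2 overlaps Adar on the opposite strand, with means of 279 with DKK1 and 205 in control, and without strand their reads cannot be told apart where they overlap.

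Bst2 went the other way. It encodes tetherin, which holds budding virus at the cell surface, and had 153, 87.9 and 150 with DKK1 and 41.7, 46.9 and 31.5 in control, 3.25-fold higher, a log2 change of 1.65 (SE 0.26, limma adjusted p = 0.000358). The lowest DKK1 library was still above the highest control library. Bst2 lies on chromosome 8 from 71534255 to 71537456, minus strand, and carries the overlapping ISRE cores printed above. It shared no 50-base stretch with another gene and kept its call in every alternative run, with log2 changes of 1.46 to 2.17.

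Mx1 and Mx2, which encode GTPases that trap viral components, were near the limit of detection in both groups. Mx1 had 2.24, 0 and 4.08 with DKK1 and 4.39, 4.47 and 12.8 in control (log2 change -1.54, SE 0.70, limma adjusted p = 0.0765). Mx2 had 4.47, 0 and 0 with DKK1 and 2.20, 7.82 and 4.93 in control (log2 change -1.64, SE 0.76, limma adjusted p = 0.0801). Mx1 rests on 8 reads with DKK1 and 21 in control, and Mx2 on 6 with DKK1 and 14 in control. Neither passed in the main fit. Without DKK1 library 3 Mx1 passed (limma adjusted p = 0.0406), as it did with the replicate number as a block (limma adjusted p = 0.0379), and without DKK1 library 1 Mx2 passed (limma adjusted p = 0.00925). Mx genes are defective in many inbred mouse strains, Mx2 is annotated as a polymorphic pseudogene, and the strain is not known here.

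The ADP-ribosylation genes lie together on chromosome 16 and fell in steps. Parp14, a transferase that adds ADP-ribose to proteins, had 934, 1139 and 950 with DKK1 and 2475, 2411 and 2555 in control, 2.46-fold lower, a log2 change of -1.30 (SE 0.08, limma adjusted p = 7.09e-07). Parp9, a relative, had 134, 121 and 145 with DKK1 and 1067, 1002 and 1024 in control, 7.73-fold lower, a log2 change of -2.94 (SE 0.10, limma adjusted p = 6.87e-09). Dtx3l, the ubiquitin ligase that works with PARP9, had 42.5, 16.5 and 36.7 with DKK1 and 824, 770 and 824 in control, 25.3-fold lower. Each gene's groups were separate with DKK1 lower, beside 37.4% of all genes. DKK1 library 2 was highest for Parp14 but lowest for Parp9 and Dtx3l. Parp9 and Dtx3l overlap at their starts on opposite strands, and 0.317, 0.136 and 0.253 counts of Dtx3l stood for each count of Parp9 with DKK1, against 0.772, 0.768 and 0.805 in control. That ratio had a two-sided exact permutation p = 0.1 and 0.143 adjusted over the 10 pairs. Reads in the overlap cannot be assigned without strand.

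Of the 7 other induced genes, 4 fell, beside 36.1% of all genes, and 1 rose, beside 35.1%. Ifi35 did not pass and Ifi44 was not tested. Ifi27l2a, a small membrane protein, had 3.73, 1.37 and 3.27 with DKK1 and 2543, 2396 and 2469 in control, 886-fold lower, a log2 change of -9.41 (SE 0.25, limma adjusted p = 2.00e-09). Rtp4, a chaperone of cell surface receptors, had 29.1, 26.1 and 31.8 with DKK1 and 2222, 2121 and 2161 in control, 74.7-fold lower, a log2 change of -6.18 (SE 0.11, limma adjusted p = 1.86e-10). Both were low in all DKK1 libraries. Sp100, a component of PML nuclear bodies, averaged 74.7 ± 11.9 with DKK1 and 3517 ± 87.9 in control, 47.1-fold lower. Xaf1, which binds the apoptosis inhibitor XIAP, averaged 6.17 ± 2.28 with DKK1 and 231 ± 13.6 in control, 37.5-fold lower (SD, n = 3 each). The antisense model Gm17017 lies within Sp100 and averaged 26.8 with DKK1 and 63.7 in control.

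Tor3a, an ATPase of the torsin family, had 258, 284 and 258 with DKK1 and 156, 161 and 172 in control, 1.64-fold higher, a log2 change of 0.71 (SE 0.11, limma adjusted p = 0.00026). Every DKK1 library was above every control library. Ifi35 had 188, 157 and 153 with DKK1 and 199, 177 and 202 in control, and its groups overlapped (log2 change -0.22, SE 0.13, limma adjusted p = 0.158). Scaled to equal totals its log2 change was 0.31 (limma adjusted p = 0.0732). Ifi44 had 1 read in control library 3 and 0 in the other five libraries. A count of 0 over the DKK1 libraries allows up to 3 reads there.

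Most ligand genes had no reads. Of 17 listed type I interferon genes, 15 had 0 reads in both groups, Ifnb1 and every listed Ifna gene among them, which allows up to 3 reads of each per group. Ifnk had 4 reads with DKK1 and 2 in control and did not pass (log2 change 0.29, SE 0.61, limma adjusted p = 0.690), and Ifnab had 1 in each group. Ifng, the type II interferon, had 0 reads, and its receptor subunits fell: Ifngr1 averaged 360 ± 36.0 with DKK1 and 2537 ± 22.5 in control, and Ifngr2 averaged 1061 ± 102 with DKK1 and 2005 ± 24.4 in control.

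The signalling genes between receptor and promoter were mixed, and Irf9 and Stat2, whose products bind the ISRE, were low with DKK1. Of 12 genes listed, 8 fell, beside 36.1% of all genes, 3 rose, beside 35.1%, and 1 did not pass, with a median log2 change of -1.07. Irf9 had 81.2, 68.7 and 91.4 with DKK1 and 1940, 1916 and 1916 in control, 23.9-fold lower, a log2 change of -4.57 (SE 0.11, limma adjusted p = 1.10e-09), and Stat2 averaged 129 ± 30.2 with DKK1 and 742 ± 22.5 in control, 5.73-fold lower. The kinases were less affected. Jak1 averaged 4009 ± 343 with DKK1 and 9271 ± 134 in control, 2.31-fold lower. Tyk2 averaged 223 ± 16.8 with DKK1 and 251 ± 14.1 in control, which did not pass (limma adjusted p = 0.178). With equal totals Tyk2 was higher (log2 change 0.36, limma adjusted p = 0.0147). Of the inhibitors, Socs1 rose (70.2 ± 19.0 with DKK1 and 20.4 ± 9.12 in control, limma adjusted p = 0.00277) and Socs3 fell 6.95-fold. Of the phosphatase genes, Ptpn2 and Ptpn11 rose, Ptpn6 fell (721 ± 139 with DKK1 and 5545 ± 94.0 in control, limma adjusted p = 4.39e-08), and Ptpn1 fell slightly (3077 ± 276 with DKK1 and 3725 ± 37.5 in control, log2 change -0.28, limma adjusted p = 0.00605). Ptpn1 had the opposite sign with equal totals (log2 change 0.25, limma adjusted p = 0.0321). Scaled to equal totals, 7 of the 12 were lower and 5 higher.

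**Figure D5:**
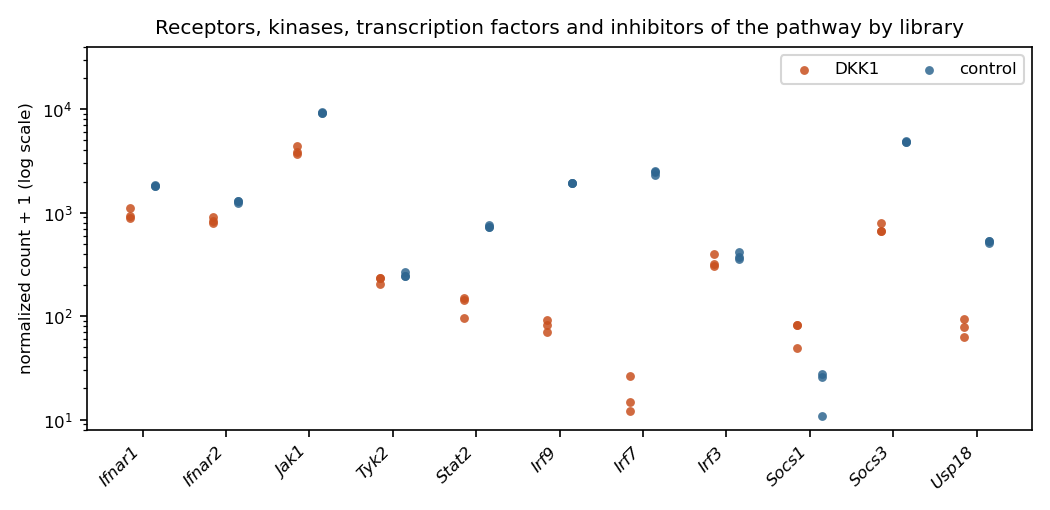
Normalized count + 1 (log axis) of the receptor, kinase, transcription factor and inhibitor genes of the pathway, 3 DKK1 libraries (orange, left of each pair) and 3 control libraries (blue, right); each point is a library. Stat2, Irf9 and Irf7 lie well below control with DKK1, Tyk2 and Irf3 lie beside it, and Socs1 lies above it.

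Factors that lead to interferon production moved both ways. Of 20 listed, 19 were tested, 7 fell, beside 36.1% of all genes, 7 rose, beside 35.1%, and 5 did not pass, with a median log2 change of -0.18. Irf7, itself induced by interferon and the main driver of Ifna genes, averaged 16.7 ± 7.59 with DKK1 and 2439 ± 96.3 in control, 146-fold lower, a log2 change of -7.19 (SE 0.25, limma adjusted p = 1.07e-08). Irf3, which needs no induction, averaged 338 ± 49.1 with DKK1 and 382 ± 31.5 in control and did not pass (limma adjusted p = 0.207). The kinases that activate both were higher: Ikbke averaged 5279 ± 910 with DKK1 and 23.0 ± 7.56 in control, and Tbk1 averaged 3306 ± 684 with DKK1 and 620 ± 19.1 in control. Of the endosomal sensors, Tlr9 averaged 956 ± 86.8 with DKK1 and 10.5 ± 2.06 in control, and Tlr7 averaged 91.8 ± 19.8 with DKK1 and 2091 ± 48.5 in control. Trim25, the ligase that activates RIG-I, averaged 349 ± 14.2 with DKK1 and 3784 ± 81.9 in control. Scaled to equal totals, 7 were lower and 10 higher, with Irf3 among the higher (log2 change 0.35, limma adjusted p = 0.0460).

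A wider list of 41 interferon-induced genes holds none of the 35; Stat2, Irf7 and Irf9 are on it too. Of its 40 tested genes, 35 fell, beside 36.1% of all genes, 2 rose, beside 35.1%, and 3 did not pass. Their median log2 change was -4.35, and 26 reached -3 or below, beside 11.6% of all genes. Oasl2, of the oligoadenylate synthetase family, averaged 25.6 ± 1.72 with DKK1 and 9510 ± 78.3 in control, and Ifitm3, which blocks viral entry, averaged 47.9 ± 2.89 with DKK1 and 3922 ± 105 in control. Slfn5 averaged 20.4 ± 1.71 with DKK1 and 4621 ± 32.3 in control, and Trim30a averaged 167 ± 15.6 with DKK1 and 5580 ± 190 in control (SD, n = 3 each). The genes that rose were Lgals3bp, at 144 ± 30.6 with DKK1 and 48.4 ± 10.5 in control, and the chemokine gene Cxcl10, at 413 ± 130 with DKK1 and 91.1 ± 18.4 in control. Gbp2, Gbp3 and Pnpt1 did not pass, though Gbp2 was higher with equal totals (log2 change 0.74, limma adjusted p = 0.00115).

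Markers of other cell types moved with the same contrast. Each count below stands beside the 36.1% of all genes that fell and the 35.1% that rose. With equal totals, 4617 of all genes were lower and 7157 higher. Of 14 monocyte and macrophage markers, 7 fell, 4 rose and 3 did not pass, and their summed level was 15319 to 15453 with DKK1 and 7409 to 7558 in control, with C1qa at 0 with DKK1. Cd68 carried the higher sum, with a mean of 10121 with DKK1 and 902 in control, while the other 13 genes summed to 4996 to 5659 with DKK1 and 6513 to 6609 in control. With equal totals, 4 of these markers were lower and 5 higher. Of 8 plasmacytoid dendritic cell markers, 4 were tested and 2 fell, with sums of 63.2 to 100.4 with DKK1 and 1103 to 1189 in control; Klk1 and Cd209d were at 0 in both groups and Siglech was at 0 with DKK1. Runx2 made up most of that control sum, with a mean of 41.3 with DKK1 and 1074 in control, and with equal totals 1 marker was lower. The 8 B cell markers summed to 44.0 to 124 with DKK1 and 1518 to 1643 in control, and 7 fell, or 3 with equal totals. Ighm made up most of the control sum, with a mean of 49.3 with DKK1 and 1458 in control. Of 10 T and NK cell markers, 3 were tested and 2 fell, with sums of 1.37 to 5.96 with DKK1 and 54.2 to 89.0 in control. There, Ncr1 and Trbc2 were at 0 in both groups, Cd3g, Cd8a, Klrb1c and Nkg7 with DKK1, and Cd3e and Trac in control. Of 8 erythroid markers, 7 were tested and 5 fell, with sums of 300.5 to 1496 with DKK1 and 1596 to 1740 in control and Epor and Klf1 at 0 with DKK1; with equal totals 2 fell. The part of these cell types, and of the lower neutrophil markers, in the changes of the interferon-induced genes was not tested.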

How the data were processed

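The deposited table gives normalized counts per gene and library, a signal that is never negative, per the file headers; how the authors set the factors, aligned and counted the reads, and with which annotation, is not stated. Reads were placed on mm10, per the submitters' processing notes. The table's 3 value columns that could be matched to no sample were left out. Dividing each value by the value of a single read in its library gave whole reads for 100% of values (tolerance 0.001 reads), so reads could be recovered.

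Groups came from the sample titles. Genes were tested with limma 3.58.1 (R 4.3.3; empirical Bayes with trend and robust fitting) on log2(normalized count + 1), DKK1 minus control, over the 16265 genes with at least 1 in at least 3 of 6 libraries, two-sided, with Benjamini-Hochberg adjustment and a threshold of 0.05. The added 1 understates changes of low genes, but the fit averages logs, which can give larger falls where libraries are uneven. Ifit2 had a log2 change of -7.88 in this fit and -7.46 with edgeR TMM on recovered reads. Had the table held raw counts, edgeR would have been the main test. The script was tested on simulated data. Folds are ratios of group means; with 1 to 3 reads in a group, the ratio is of pooled reads, with its exact interval. Intervals and floors cover counting error only, since reads carry no molecular identifiers. Library pairs within groups differed beyond counting noise.

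The genes and lists were chosen with earlier results of these data known. Named were all 35 genes, the core pathway genes, and the 4 others of smallest adjusted p in each pathway list except the signalling genes. Tbk1, the phosphatase genes, overlapping genes and markers at 0 were named after their values were seen. So were the genes of the wider list that rose or did not pass. Positions and exon lengths are from GENCODE M21 (GRCm38), matched by identifier without version (51948 of 56884, 91.3%). M21 names Rigi Ddx58. Promoter windows are RefSeq's; there were none here for Dhx58, Ifi204, Ifi27l2a, Mx1, Mx2, Parp14, Parp9, Rtp4, Tor3a, Usp18 and Zbp1. Some listed genes are not reported here by name. Alternatives were other pseudocounts, filters, scalings and variance models, the replicate block, leaving out each library, and edgeR 4.0.16 and DESeq2 1.42.0 on recovered reads.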

Additional observations from a re-analysis of the deposited data

How the results depend on the processing

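Of 640 log2 changes of single genes under 19 alternatives, 635 kept their direction and side of the threshold, and 30 of the 34 genes did so throughout. The exceptions were Ifnar2, Mx1, Mx2 and Ifi35, as given above; Ifi35 had the opposite sign with equal totals (0.31). The genes called lower numbered 28 to 30 and those called higher 2 in every alternative. Their median log2 change was -3.89 with a pseudocount of 10, -4.52 with no filter, -4.74 with a filter of 10, -4.10 with equal totals and -4.52 with quantile scaling, and -4.73 to -4.52 when a library was left out. The median of all genes was -0.0073 with a pseudocount of 10, 0.063 with no filter, 0.016 with a filter of 10, 0.48 with equal totals, -0.080 with median-of-ratios scaling and 0.12 with quantile scaling. On recovered reads it was 0.036 with edgeR TMM, 0.072 with edgeR under the deposited scaling and 0.027 with DESeq2. With equal totals, 5 signalling genes were higher. The cause of these shifts was not tested.

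Over all genes, edgeR with TMM called 4849 lower and 4982 higher, and DESeq2 called 5444 lower and 5061 higher. Same-numbered libraries deviated together little (r = 0.03, 0.05 and 0.03 over 11714 genes), so the numbers were not taken to pair them; each correlated best with its own number, a hint from the data. With the replicate block, 30 of the interferon-induced genes were lower and 2 higher. Depth limits Mx1, Mx2, Ifi44 and the ligands, and the IFIT genes other than Ifit1 rest on few reads with DKK1. So do Zbp1, Ifi209 and Ifi27l2a, as given above, Xaf1 with 19 reads and Cmpk2 with 29.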
